A study of Mus musculus with 4 samples.

Results

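The 30 genes described here encode Polycomb proteins, other chromatin regulators and cohesin proteins, and were listed by name among the 21887 protein-coding genes of the GRCm38.p6 gene table. A variant was counted in a gene when its position lay between the start and end of the gene and both callers, SpeedSeq and VarScan2, reported it at the same position with the same alleles. Each caller had to give an allele fraction of at least 0.1. This is variant reads divided by depth for SpeedSeq, and divided by the sum of reference and variant reads for VarScan2. Each caller also had to give 3 or more variant reads at a depth of 10 or more, and the SpeedSeq quality score had to be at least 20. Such a variant is called confident. The rule left 131 confident sites in 17 of the 30 genes, of which 102 were single-nucleotide variants (SNVs) and 29 were insertions or deletions (indels). The other 13 genes had none.

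The study sequenced the exomes of c-Kit-positive leukaemia cells taken from the bone marrow of moribund E2-KO mice on a C57BL/6 background, in 4 samples. E2-KO stands for an Nras-G12D allele combined with knockout of Ezh2, and by their labels all samples have both. There is 1 group, with no control and no matched normal DNA among the samples, so no variant can be called acquired or inherited. The labels do not number the animals, name the driver of the knockout, or say whether DNA was pooled. The samples are therefore called replicates 1 to 4 in the order of their listing, and a test between them measures a difference between libraries that may be technical. Exome DNA holds no expression values, so the c-Kit label could not be checked against markers.

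Polycomb repressive complex 2 (PRC2) places methyl groups on lysine 27 of histone H3, a mark of silenced genes. Ezh2 or its relative Ezh1 is the catalytic subunit, Eed and Suz12 are needed for its activity, Rbbp4 binds histones and Jarid2 helps recruit the complex. Trithorax-type enzymes such as Kmt2a act on active genes, the acetyltransferases Crebbp and Ep300 mark enhancers, and cohesin, a ring of Smc3, Rad21 and partner proteins, holds sister chromatids together and shapes chromatin loops with Ctcf. Genes of these groups are recurrently mutated in myeloid leukaemia.

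Of the 17 genes, 6 held indels and no SNV, and the reference around these indels is printed because it is the context in which each call was made. Capitals mark the deleted bases of a deletion and the added bases of an insertion, on the plus strand of mm10, at the coordinates of the caller's record.
Eed, deletion of AC, chr7:89962159-89962210: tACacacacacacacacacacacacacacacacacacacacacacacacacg
Suz12, insertion of T, chr11:80007623-80007643: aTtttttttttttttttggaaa
Nsd1, insertion of T, chr13:55248121-55248139: gTtttttttttttttctgac
Crebbp, deletion of GT, chr16:4099614-4099667: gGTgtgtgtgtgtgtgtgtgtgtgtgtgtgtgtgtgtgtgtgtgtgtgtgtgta
Nipbl, deletion of C, chr15:8446653-8446675: gCcccccccccccccctttcttg
Ctcf, deletion of T, chr8:105675101-105675125: cTtttttttttttttttaattgaga
The reference held 25 copies of the repeated unit at Eed, 15 at Suz12, 13 at Nsd1, 26 at Crebbp, 15 at Nipbl and 16 at Ctcf. All 6 calls thus lay in a run of a single base or of a repeated pair of bases. A second set is shown because the change lay outside such runs, although the Kmt2a deletion lay in a repeat of the longer unit CCAGCA.
Asxl1, insertion of 9 bases, chr2:153393048-153393053: gCCTTGATACcccag
Asxl1, insertion of 13 bases, chr2:153396910-153396912: tGCCATTCATAGTGgc
Kdm6b, insertion of 2 bases, chr11:69407220-69407222: aCCct
Kmt2a, deletion of 12 bases, chr9:44808898-44808935: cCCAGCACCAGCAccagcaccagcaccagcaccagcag
Stag1, deletion of 6 bases, chr9:100954165-100954172: cCTAGGAc
The gene table has no exons, so whether any of these changes lies in coding sequence was not analysed here.

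Across the genome the callers together gave 33302, 31818, 30677 and 21510 confident variants in replicates 1 to 4, at a median depth of 50, 45, 53 and 51 reads. Replicates 3 and 4 stood apart. Taking an allele fraction of 0.65 as the lower bound of an upper range, where a homozygous or hemizygous variant would lie in an undiluted sample, the median of the upper-range variants was 80.4% in replicate 3 and 100% in each other sample. The median of the remaining, lower-range variants was 38.4% in replicate 3 and 45.2%, 46.2% and 45.1% in replicates 1, 2 and 4. In replicate 4 the upper range held 52.0% of variants, against 24.3%, 23.8% and 27.2% in replicates 1 to 3. The files list variant positions only, so a sample with no call at a site cannot be told apart from a sample without reads there.

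The 30 genes held 54, 58, 99 and 43 confident variants in replicates 1 to 4 (mean 63.5 ± 24.5, SD, n = 4). Replicate 3 was highest, and 62 of its 99 variants were confident in no other sample. At least 1 confident variant was present in 5 of the 30 genes in replicate 1 (16.7%), against 14.8% of all protein-coding genes. The count was 7 (23.3%, against 14.6%) in replicate 2, 10 (33.3%, against 14.6%) in replicate 3 and 8 (26.7%, against 10.8%) in replicate 4. The count of replicate 4 was 4 at a depth of at least 20 and also at a quality score of at least 100, 5 with variant reads on both strands, and 12 with VarScan2 alone. That of replicate 1 was 9 with VarScan2 alone. Over any sample it was 17 of 30 (56.7%), against 23.9% of all genes. These genes are long, with a median of 70737 bases against 17169 for all genes. Per megabase of gene body they held 20.1, 21.6, 36.8 and 16.0 confident variants in replicates 1 to 4, against 26.4, 26.2, 25.4 and 17.4 for all genes. Their density was thus above that of all genes in replicate 3, where Stag1 held 28 and Kmt2c 24 of the 99 variants. It was below that of all genes in the other samples. A gene body includes introns, which an exome covers only in part. The captured length was not measured, so these densities do not correct for it. Confident variants occurred in replicate 3 and in no other sample in 6 of the 30 genes (20%, against 3.76% of all genes), namely Kmt2c, Kmt2d, Setd2, Jmjd1c, Stag1 and Nipbl. The same count was 0 for replicate 1 (against 1.98%), 1 for replicate 2 (3.33%, against 1.71%) and 3 for replicate 4 (10%, against 0.982%). The 3 genes of replicate 4 were Eed, Nsd1 and Ctcf. Each of them, like Nipbl in replicate 3, held only 1 indel in a repeat. At least 1 caller listed that same indel in another sample too, so these genes count as confined to 1 sample only under the rule. In all 4 samples it was 2 genes, Asxl1 and Jarid2 (6.67%, against 5.08%). Jarid2 held no confident variant in any sample when variant reads needed a mean mapping quality of at least 50.

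**Figure D1:**
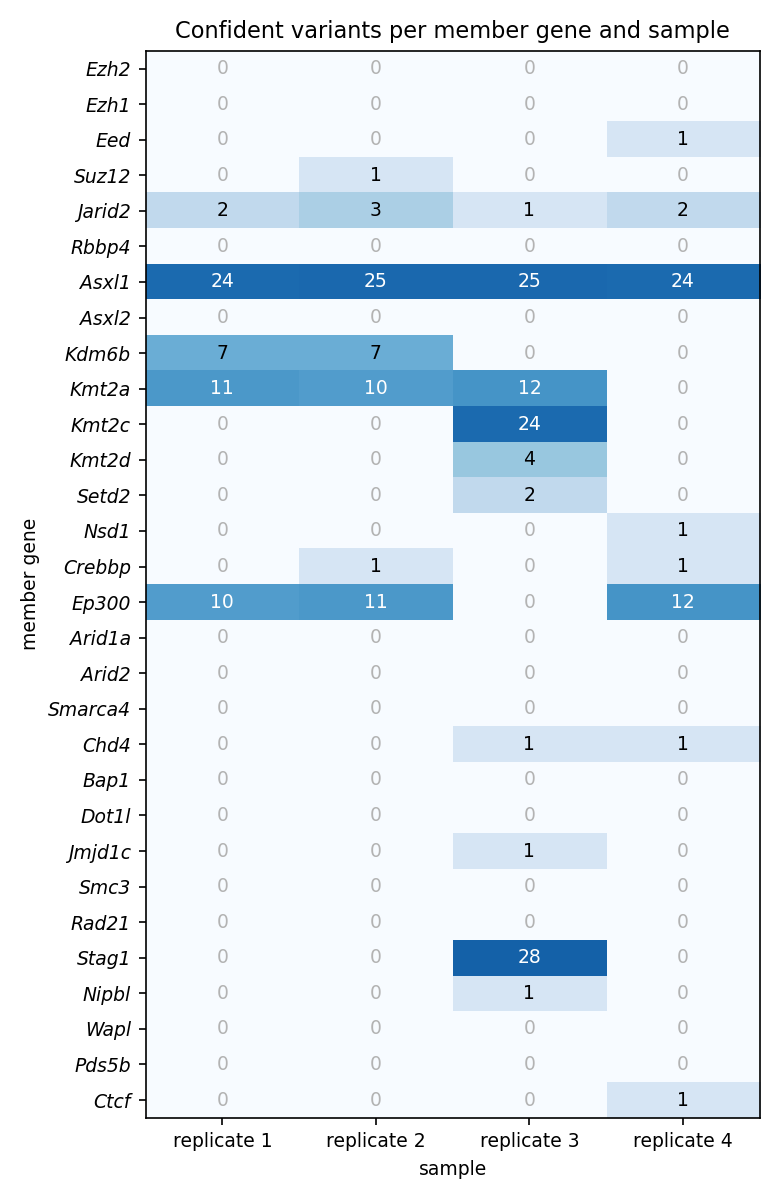
Confident variants in each of the 30 genes (rows) in each sample (columns), with the count printed in its cell and a darker blue for a higher count. Asxl1 held 24 or 25 variants in every sample, whereas the 24 variants of Kmt2c and the 28 of Stag1 were all in replicate 3.

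Of the 131 sites, 71 (54.2%) were confident in 1 sample, 17 (13.0%) in 2, 23 (17.6%) in 3 and 20 (15.3%) in all 4, against 34.5%, 24.6%, 23.5% and 17.3% of the sites of the whole genome. The largest classes were the 62 sites of replicate 3 alone, the 20 sites of all samples, and 11 sites each in replicates 1, 2 and 3 and in replicates 1, 2 and 4. A stricter count took only private sites, which neither caller listed at any quality in the other 3 samples. There were 62 of these, 60 in replicate 3 and 2 in replicate 2, and only 5 sites were private when replicate 3 was left out. Without replicate 3, or without replicate 4, 31 sites were confident in all the samples that remained.

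The upper range held 4 of the 54 variants of replicate 1 (7.41%, exact 95% interval 2.06 to 17.9) and 29 of the 58 of replicate 2 (50%, 36.6 to 63.4). It held 6 of the 99 of replicate 3 (6.06%, 2.26 to 12.7) and 26 of the 43 of replicate 4 (60.5%, 44.4 to 75.0). Intervals here and below are Clopper-Pearson intervals and describe the counting error alone, as reads may repeat a molecule and sites of a gene are not independent of each other. Over all variants of the genome the shares were 24.3%, 23.8%, 27.2% and 52.0% in replicates 1 to 4. The genome share lay below the interval of the 30 genes in replicate 2, above it in replicates 1 and 3, and inside it in replicate 4. However, Asxl1 alone supplied 25 of the 29 upper-range variants of replicate 2 and 24 of the 26 of replicate 4. It held no lower-range variant in either sample. In replicate 3, 28 lower-range variants were in Stag1, 25 in Asxl1 and 24 in Kmt2c. The intervals treat such sites as independent, so they cannot place the 30 genes as a set above or below the genome. Transitions made up 80 of the 102 SNV sites (78.4%, 69.2 to 86.0), against 70.0% of the 45306 SNV sites of the genome.

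Among the PRC2 genes there were 2, 4, 1 and 3 confident variants in replicates 1 to 4 (mean 2.5 ± 1.29, SD, n = 4), in Jarid2, Suz12 and Eed. This mean was 0.5 when variant reads needed a mean mapping quality of at least 50, 1.25 when both strands had to carry variant reads and 1.5 at a depth of at least 20. With VarScan2 alone it was 3.75. Ezh2, Ezh1 and Rbbp4 had no confident variant.

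Ezh2 (chr6:47530274-47595270), the catalytic subunit targeted in these mice, had only isolated calls by 1 caller. In replicate 1 SpeedSeq listed a T-to-G change at 47547844 with 3 variant reads of 8 and a C-to-T change at 47578669 with 2 of 5. In replicate 2 it listed a 1-base deletion at 47574282 with 2 variant reads of 6. In replicate 4 VarScan2 listed a 2-base deletion at 47556152 with 5 of 17 reads, all on the reverse strand, and replicate 3 had no call. Each of these fell short of the rule, so no second change of Ezh2 beside the engineered allele was called. Removal of an exon leaves no entry in files of small variants, so the loss of Ezh2 named by the genotype was not measured. Around Ezh2, within 1 Mb on either side, replicate 1 held 4 confident SNVs and the other samples held 0. All 4 were in the upper range, with a median fraction of 100%.

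Ezh1 (chr11:101191115-101226463), the alternative catalytic subunit, was listed by SpeedSeq alone with 1 call of 2 reads in replicate 1 and 2 calls of 9 and 2 reads in replicate 2. Rbbp4 (chr4:129307100-129335370) had 2 SpeedSeq SNVs in replicate 4, each at a depth of 3. Neither gene had any VarScan2 entry.

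Eed (chr7:89954654-89980976), which binds the methylated histone tail, had the AC deletion shown above in replicate 4, with 13 variant and 9 reference reads at a depth of 31 (41.9%, 24.5 to 60.9). All 13 variant reads were on the forward strand, and SpeedSeq gave the genotype as homozygous although reference reads were present. In replicate 3 VarScan2 alone listed the same deletion with 15 variant and 36 reference reads at a coverage of 59. The call was therefore not private to replicate 4. The only other entry in Eed was a SpeedSeq SNV of replicate 1 at a depth of 2.

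Suz12 (chr11:79993106-80034123) had the T insertion shown above in replicate 2, with 7 variant and 9 reference reads at a depth of 22 (31.8%, 13.9 to 54.9). All 7 variant reads were on the reverse strand. Neither caller listed this insertion in another sample. VarScan2 alone listed other Suz12 indels in replicates 1, 2 and 3, with 7 variant reads of 24 and 9 of 38 at 80010508 and 4 of 17 at 79999223. SpeedSeq alone listed a 1-base deletion of 2 reads in replicate 1. What the calls in Eed and Suz12 share is a long repeat and variant reads from a single strand.

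Jarid2 (chr13:44730774-44921643) was the only PRC2 gene with confident SNVs, and its 3 sites lay within 111 bases. At 44869614 an A-to-G change was carried by 111 of 116 reads in replicate 1 (95.7%, 90.2 to 98.6) and 60 of 61 in replicate 2 (98.4%, 91.2 to 100). It was carried by 37 of 38 reads in replicate 3 (97.4%, 86.2 to 99.9) and 39 of 39 in replicate 4 (100%, 91.0 to 100). All 4 samples were in the upper range. In replicate 3 this fraction was higher than that of 98.4% of the SNVs of the sample. The mean mapping quality of its variant reads was 43.1, 40.2, 37.2 and 40.1, against 60 at, for example, the Kdm6b and Kmt2d sites. At 44869724 a second A-to-G change was carried by 13 of 15 reads in replicate 1, 17 of 17 in replicate 2 and 11 of 11 in replicate 4, all on the reverse strand, and by 5 of 5 in replicate 3, below the depth required. Mapping quality there was 22.8, 24.5 and 23.2 in replicates 1, 2 and 4. Between them, an A insertion at 44869684 was confident in replicate 2 with 24 variant reads of 25 (96%), and SpeedSeq alone passed it in replicate 1 with 34 of 36 and in replicate 3 with 11 of 12. In replicate 4 both callers listed it at too low a depth, with 9 of 9 reads in SpeedSeq. No sample had a confident SNV within 1 Mb outside Jarid2, and the 3 sites thus stood alone. Every Jarid2 entry outside these 3 sites came from 1 caller at a depth of at most 8. No Jarid2 site stayed confident when a mean mapping quality of at least 50 was required. The part of the low mapping quality in these values was not tested.

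Asxl1 (chr2:153345830-153404007), a partner of the deubiquitinase Bap1 that is often truncated in myeloid disease, carried the most sites. It held 24, 25, 25 and 24 confident variants in replicates 1 to 4, at 29 sites of which 25 were SNVs and 4 indels. Of the sites, 19 were confident in all samples and none was private. The SNV fractions had a median of 44.0% in replicate 1 (range 37.7 to 66.7) and 38.8% in replicate 3 (27.3 to 54.5). The median was 100% in both replicate 2 (97.4 to 100) and replicate 4 (98.9 to 100). Replicates 2 and 4 did not overlap with replicates 1 and 3. At the site of highest summed depth, an A-to-G change at 153352206, the variant was carried by 86 of 199 reads in replicate 1 (43.2%, 36.2 to 50.4) and 81 of 195 in replicate 3 (41.5%, 34.5 to 48.8). It was carried by 127 of 127 reads in replicate 2 (100%, 97.1 to 100) and 164 of 164 in replicate 4 (100%, 97.8 to 100).

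Allele fractions were compared between samples at each site confident in both, with a two-sided Fisher's exact test on reference and variant reads and Benjamini-Hochberg adjustment over all 104436 tests of the genome. Sites of a gene are not independent replicates of the difference, and the test compares libraries. Of 60 sites of the 30 genes that could be tested, 24 (40%) were called in at least 1 pair, against 37.7% of sites in the genome. By pair, the 30 genes had 22 of 51 tested sites called between replicates 1 and 2 (43.1%, against 15.8% in the genome), 2 of 34 between 1 and 3 (5.88%, against 32.8%) and 19 of 31 between 1 and 4 (61.3%, against 32.3%). They had 22 of 32 called between replicates 2 and 3 (68.8%, against 35.7%), 0 of 35 between 2 and 4 (0%, against 34.7%) and 21 of 23 between 3 and 4 (91.3%, against 47.7%). All called sites but 1 lay in Asxl1. At Asxl1 the pair of replicates 1 and 2 was called at 22 of 22 sites, with a median difference of -56.0 percentage points. Among these sites was the 9-base insertion at 153393048, where VarScan2 counted fewer variant reads in proportion, 7 of 23 and 13 of 28 in replicates 1 and 2, against 7 of 16 and 13 of 14 in SpeedSeq. With VarScan2 reads, 23 sites of the 30 genes were called in place of 24. The counts were 19 of 19 for replicates 1 and 4 (-55.7 points), 22 of 22 for replicates 2 and 3 (62.4 points) and 20 of 21 for replicates 3 and 4 (-62.9 points). The site not called among the 21 was the CT deletion at 153402169, with 7 of 12 and 10 of 10 reads. Replicates 1 and 3 differed at 2 of 23 sites (median difference 8.68 points), a T-to-C change at 153391691 (60.5% and 38.8%) and a C-to-T change at 153401764 (57.3% and 28.4%). Replicates 2 and 4 were called at 0 of 22 sites, with a median difference of 0 points and a smallest Fisher's exact adjusted p of 0.118. The flanks of the gene showed the same division, with 790, 692, 766 and 694 confident SNVs within 1 Mb outside Asxl1 and a median fraction of 46.7%, 100%, 37.3% and 100% in replicates 1 to 4.

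**Figure D2:**
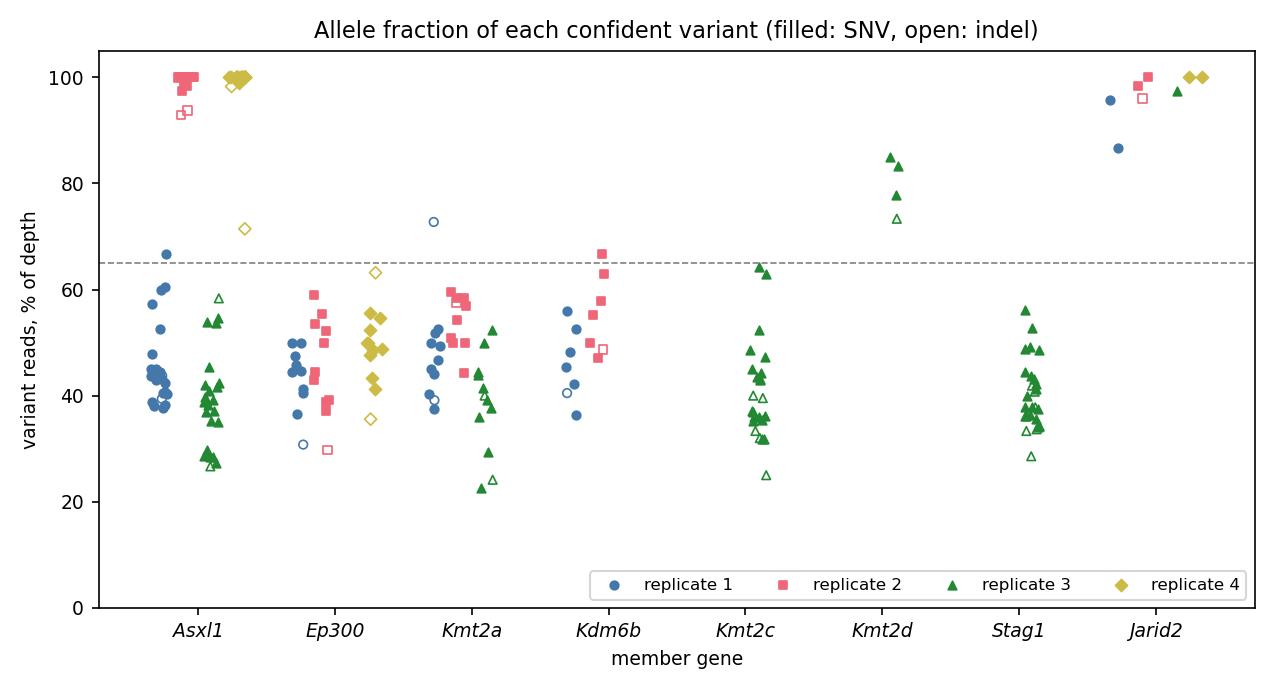
Allele fraction, in percent of depth, of every confident variant in 8 genes, with 1 symbol and colour per sample, filled symbols for SNVs and open symbols for indels. The dashed line marks 65%. The Asxl1 SNVs lie near 100% in replicates 2 and 4, where the lowest Asxl1 indels lie at 92.9% and 71.4%. In replicates 1 and 3 Asxl1 lies mostly below the line. Kmt2d lies between 73.3% and 85% in replicate 3, and Jarid2 lies above the line in every sample.

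Of the 4 Asxl1 indels, 1 had a depth above 16 reads. This 1-base deletion at 153398009 was carried by 26 of 66, 62 of 62, 24 of 90 and 57 of 58 reads in replicates 1 to 4, which is low in replicates 1 and 3 and near complete in replicates 2 and 4. The inserted 9 bases at 153393048 were in 7 of 16 reads in replicate 1 and 13 of 14 in replicate 2, and VarScan2 alone listed them in replicate 4 with 8 of 18. The inserted 13 bases at 153396910 were in 15 of 16 reads in replicate 2 and 10 of 14 in replicate 4. For long insertions the callers counted differently. SpeedSeq gave 0 reference reads at the 13-base insertion in replicate 2 where VarScan2 gave 29 beside 13 variant reads. The zygosity of these 2 insertions is therefore uncertain.

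Kdm6b (chr11:69398508-69420367), a demethylase that removes the mark placed by PRC2, held the same 7 sites in replicates 1 and 2 and no call in replicates 3 and 4. The 6 SNVs had a median fraction of 46.8% in replicate 1 (range 36.4 to 56) and 56.5% in replicate 2 (47.1 to 66.7). At the deepest site the CC insertion shown above was carried by 51 of 126 reads in replicate 1 (40.5%, 31.8 to 49.6) and 36 of 74 in replicate 2 (48.6%, 36.9 to 60.6). None of the 7 sites differed between both samples by Fisher's exact test (smallest adjusted p = 0.194, median difference -8.17 points). Within 1 Mb outside the gene there were 214, 216, 2 and 0 confident SNVs in replicates 1 to 4.

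Among the histone H3 lysine 4 methyltransferases, Kmt2a (chr9:44803355-44881352), the MLL gene rearranged in acute leukaemia, held 11, 10, 12 and 0 confident variants at 13 sites. Of these, 9 were shared by replicates 1, 2 and 3, and 8 lay between 44847077 and 44849633. SNV medians were 46.7%, 54.2% and 40.4% in replicates 1 to 3. The deepest site, a G-to-A change at 44849633, was carried by 63 of 140 (45%), 65 of 128 (50.8%) and 66 of 159 reads (41.5%). The tests between these samples called no Kmt2a site (smallest Fisher's exact adjusted p = 0.0577). That smallest value was for replicates 2 and 3 at a 1-base deletion at 44847077, carried by 9 of 23, 19 of 33 and 7 of 29 reads in replicates 1 to 3. The 12-base deletion shown above removes 2 of the repeated CCAGCA units, and was carried by 8 of 11 reads in replicate 1 and 10 of 25 in replicate 3, while VarScan2 alone listed it in replicate 2 with 7 of 24. Replicate 3 held a G-to-A change at 44842610 that was private, with 16 of 71 reads (22.5%, 13.5 to 34.0). Only 1.97% of the SNVs of that sample had a lower fraction, and it lies close to the 20% under which VarScan2 lists nothing. Replicate 3 also held a change at 44876688, in 7 of 14 reads, where the table places the gene Gm39326 as well, and SpeedSeq listed that change in replicate 2. Confident SNVs within 1 Mb outside Kmt2a numbered 233, 226, 230 and 0.

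Kmt2c (chr5:25271795-25498855), a methyltransferase of enhancers, held 24 sites, all private to replicate 3, of which 19 were SNVs and 5 indels. Their fractions ranged from 25% to 64.3% with a median of 38.3%, close to the median of lower-range variants in that sample. The deepest was a T-to-C change at 25409197 with 92 of 189 reads (48.7%). The 5 indels, at 25281458, 25318962, 25391655, 25404189 and 25450884, were carried by 17 of 43, 10 of 40, 8 of 25, 7 of 21 and 6 of 15 reads. None of them exceeded 40%. The gene Hspe1-ps3 also lies at 25391655, and Gm18343 at 25450884. The 24 sites spread over 169 kb of Kmt2c. Within 1 Mb outside it there were 54, 53, 223 and 56 confident SNVs in replicates 1 to 4, so replicate 3 was the highest there too.

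Kmt2d (chr15:98831669-98874077), the paralogue of Kmt2c, held 4 private sites in replicate 3, and all 4 were in the upper range. The T-to-C change at 98865168 was carried by 161 of 207 reads (77.8%, 71.5 to 83.2), the G-to-A change at 98852653 by 51 of 60 (85%), the T-to-C change at 98846481 by 25 of 30 (83.3%) and a G insertion at 98832862 by 11 of 15 (73.3%). Reference reads were present at each, 46 of 207 at the deepest. These fractions lay near the upper-range median of 80.4% in that sample. Within 1 Mb outside Kmt2d replicates 1, 2 and 4 held 0, 2 and 1 confident SNVs. Replicate 3 held more there than around Kmt2c, and their median fraction was 78.9%.

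Setd2 (chr9:110532500-110618633), the lysine 36 methyltransferase, held 2 private SNVs in replicate 3, an A-to-T change at 110564471 with 23 of 74 reads (31.1%, all on the forward strand) and a C-to-A change at 110594813 with 27 of 59 (45.8%). Within 1 Mb outside it the samples held 1, 0, 328 and 0 confident SNVs. Nsd1, another lysine 36 methyltransferase, held only the T insertion shown above in replicate 4, with 5 of 18 reads, and SpeedSeq alone listed it in replicate 1 with 3 of 13.

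Ep300 (chr15:81586209-81652077), one of the paired acetyltransferases, held 10, 11, 0 and 12 confident variants at 13 sites, 10 of them in replicates 1, 2 and 4. The SNV medians of 44.6%, 47.2% and 49.4% were alike, and the ranges of 36.6 to 50, 37.1 to 59.0 and 41.3 to 55.6 overlapped. The deepest site, a G-to-A change at 81636752, was carried by 91 of 204 (44.6%), 64 of 149 (43.0%) and 76 of 184 reads (41.3%). None of the Ep300 tests was called, with a smallest Fisher's exact adjusted p of 0.119 and median differences of -2.38, -3.63 and -1.95 points for replicates 1 and 2, 1 and 4, and 2 and 4. A T insertion at 81623553, in a run of 15 T, was carried by 8 of 26, 14 of 47 and 16 of 45 reads. Reference reads there numbered 11, 20 and 22 in replicates 1, 2 and 4. Replicate 2 held a private SNV at 81624738 with 9 of 18 reads, all on the reverse strand. Replicate 4 held a deletion at 81640291 with 12 of 19 reads and an SNV at 81644812 with 6 of 11, and both were listed below the rule in replicate 2. Within 1 Mb outside Ep300 there were between 207 and 220 confident SNVs in each of replicates 1, 2 and 4 and 1 in replicate 3. Crebbp, the other acetyltransferase, held only the GT deletion shown above. In replicate 2 the deletion had 6 variant and 3 reference reads at a depth of 13, and SpeedSeq gave the genotype as homozygous. In replicate 4 it had 5 variant and 5 reference reads at a depth of 12. All these variant reads were on the forward strand, and VarScan2 alone listed the deletion in replicate 1 with 5 of 15.

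**Figure D3:**
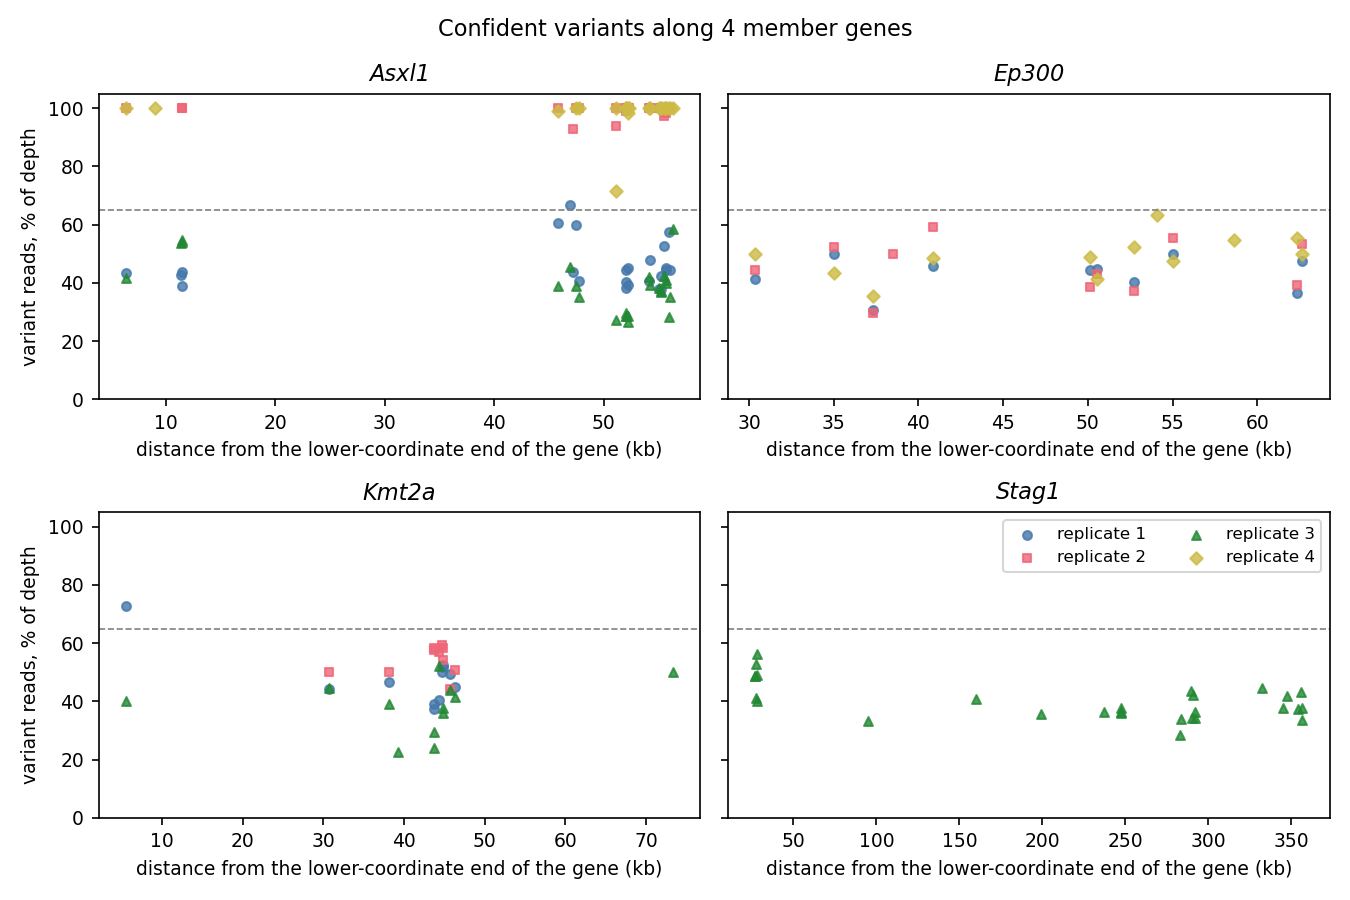
Allele fraction, in percent of depth, of each confident variant in Asxl1, Ep300, Kmt2a and Stag1 against its distance in kilobases from the lower-coordinate end of the gene, with 1 symbol and colour per sample and a dashed line at 65%. The separation of replicates 2 and 4 from replicates 1 and 3 is seen in both clusters of Asxl1 sites, with no site between them, and Stag1 has points from replicate 3 only.

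Chd4 (chr6:125095980-125130591), the ATPase of the NuRD remodelling complex, held an A-to-G change at 125110244 with 121 of 149 reads in replicate 3 (81.2%, 74.0 to 87.1) and 69 of 156 in replicate 4 (44.2%, 36.3 to 52.4). The intervals did not overlap and the difference was called (Fisher's exact adjusted p = 1.85e-10). Replicates 1 and 2 had no call there. Each of replicates 3 and 4 had 1 confident SNV within 1 Mb outside Chd4, at 88.2% and 53.2%. Jmjd1c (chr10:67096351-67256326), of the lysine 9 demethylase family, held a private T-to-C change at 67238174 in replicate 3 with 59 of 100 reads (59%, 48.7 to 68.7). Its flanks held 65 confident SNVs in replicate 3, with a median of 36.1%, and 0 in each other sample. The remodelling genes Arid1a, Arid2 and Smarca4, the deubiquitinase gene Bap1, the lysine 79 methyltransferase gene Dot1l and Asxl2 had no confident variant in any sample.

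Among the cohesin genes Stag1 (chr9:100597709-100958544), a subunit that binds the ring, held 28 sites, all private to replicate 3, of which 21 were SNVs and 7 indels. The fractions ranged from 28.6% to 56.1% with a median of 37.8%, and the deepest site, an A-to-G change at 100625512, was carried by 120 of 300 reads (40%). The 6-base deletion shown above was carried by 35 of 104 reads (33.7%). A run of at least 9 copies of the changed base held 3 of the other indels, at 100692930 (14 of 42 reads), 100757673 (44 of 108) and 100844950 (17 of 45). The remaining 3 were insertions at 100834704 (4 of 11), 100880730 (16 of 56) and 100944970 (49 of 117). Of the sites, 7 lay within 1283 bases, between 100624788 and 100626070, and 6 of these lay inside Gm8661, which the table places within Stag1. Within 1 Mb outside Stag1 there were 1, 0, 61 and 0 confident SNVs. Nipbl, which loads cohesin, held only the C deletion shown above in replicate 3. The deletion had 7 variant and 5 reference reads at a depth of 21, with all variant reads on the reverse strand. VarScan2 alone listed it in replicate 4 with 6 of 28. Ctcf, the zinc finger protein at loop anchors, held only the T deletion shown above in replicate 4. This deletion had 5 variant and 8 reference reads at a depth of 17, with all variant reads on the reverse strand. Both callers listed it below the rule in replicate 3 (9 of 29 and 10 of 47). The ring subunits Smc3 and Rad21 and the regulators Wapl and Pds5b had no confident variant.

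**Figure D4:**
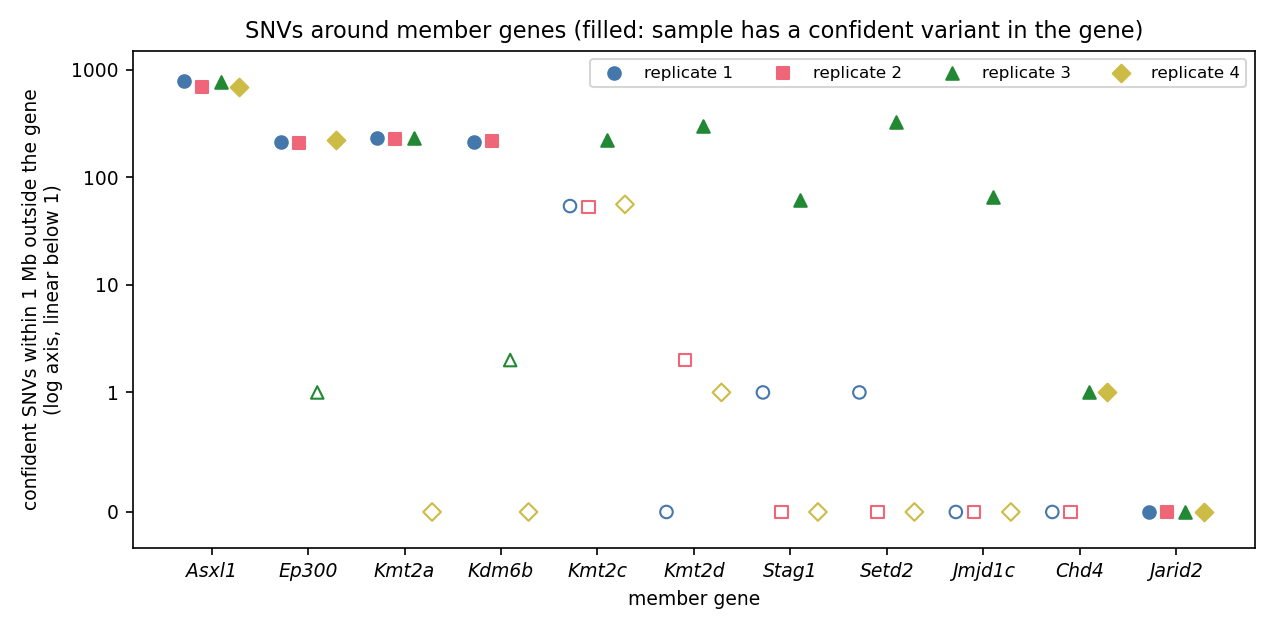
Number of confident SNVs within 1 Mb outside each of 11 genes, on a logarithmic axis that is linear below 1, with 1 symbol and colour per sample and filled symbols where the sample also had a confident variant in the gene. Filled symbols lie above 60 for 9 genes, and for Chd4 and Jarid2 they lie at 1 and 0.

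Of the 29 indels, 15 were insertions and 14 deletions, 17 changed 1 base, 7 changed 2 and 5 changed 3 or more. A run of at least 8 copies of the changed unit held 11 of the 29 (37.9%, 20.7 to 57.7), against 39.0% of 7148 indels in the genome, and 4 had a length that is a multiple of 3 (13.8%, against 11.4%). Variant reads came from a single strand in 14 of 42 indel values and in 27 of 212 SNV values. SpeedSeq passed 12 further calls in these genes at positions that VarScan2 did not list, and 9 of them were in the upper range with at least 90.9% of variant reads on a single strand. They included Asxl1 changes at 153357254, with 38 of 38 reads in replicate 2 and 43 of 43 in replicate 4, and at 153392750, with 23 of 23 and 19 of 19.

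A wider list of 71 other genes of these pathways was counted in the same way. At least 1 confident variant in any sample was present in 20 of the 71 (28.2%, against 23.9% of all genes). In replicates 1 to 4 it was present in 15, 12, 11 and 12 of the 71 genes. Over all 21887 genes the counts were 3232, 3199, 3187 and 2359, which are shares of 14.8%, 14.6%, 14.6% and 10.8%. By role the 20 were 4 of 7 PRC2 accessory genes (57.1%) and 6 of 21 genes of Polycomb repressive complex 1 (28.6%). The others were 7 of 31 histone and remodelling genes (22.6%) and 3 of 12 cohesin genes (25%). The lengths of these genes were not taken into account.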

How the data were processed

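Exomes of 4 samples (Agilent SureSelect, pairs of 100 bases, per the labels' protocols) were analysed from 3 deposited files per sample. Variants were called by the authors with freeBayes 0.9.21 within SpeedSeq, 1 sample at a time, with a Phred-scaled quality score, per the file headers, and in the other 2 files with VarScan2. The builds mm10 and GRCm38 come from the submitters' processing notes. The aligner, duplicate handling and the version of VarScan2 were not given in the sources used here. Tested on the files, VarScan2 lists nothing under a coverage of 8, 3 variant reads or 20%.

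Confident variants were matched between both callers, multi-base substitutions were left out, and positions were placed in gene bodies of the RefSeq GRCm38.p6 table. Fractions and tests used SpeedSeq reads. Python 3.11.15 with pandas 2.3.3, scipy 1.17.1 and statsmodels 0.14.6 was used, and the test was tested on simulated data. Depth at confident variants in the 30 genes ranged from 10 to 300 reads. By the rule for named genes, every gene is accounted for: PRC2 genes come first with every call, the others with their indels, private sites and deepest site, and genes with many sites otherwise by counts and ranges. The private SNVs of Kmt2c and Stag1 and the Jarid2 entries outside its 3 sites are given by range because of their number. The genes and lists were chosen with earlier results of these data known. Alternatives covered depth, quality, fraction, caller, mapping quality, strand, indel matching, gene margins, multi-base handling, the range boundary and leaving out each sample.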

Additional observations from a re-analysis of the deposited data

Results flagged for a closer look

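Over 34 quantities examined (8 counts per gene among them), 5 counts had 1 sample far from the other 3. Chance alone sets apart about 1 in 20 groups of continuous values. That rate does not hold for counts where 3 samples are at 0, as in Kmt2c, Kmt2d and Stag1, since any count in the remaining sample is then set apart. The samples set apart were replicate 4 for Kmt2a (0 confident variants, against 11, 10 and 12), replicate 3 for Ep300 (0, against 10, 11 and 12), and replicate 3 for Kmt2c (24), Kmt2d (4) and Stag1 (28), each against 0 in the others. In every case the flanking SNV counts given above set apart the same sample.

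Substitutions of several adjacent bases were outside the count. In Smc3, a subunit of the cohesin ring with no confident variant, SpeedSeq listed GAA replaced by TAG at chr19 position 53618895 in 23 of 23, 35 of 35, 38 of 38 and 50 of 50 reads in replicates 1 to 4. The forward strand held 2, 3, 2 and 3 of these reads, and VarScan2 listed nothing at these bases. In Kmt2a, AAAAC was replaced by GAAAT at 44847086 in 8 of 21, 18 of 30 and 6 of 26 reads in replicates 1 to 3. In Stag1, CAAA was replaced by AAAT at 100908539 in 18 of 31 reads of replicate 3, all on the forward strand. VarScan2 listed changes within the span of the latter pair.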

How the results depend on the processing

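The mean of 2.5 confident variants per sample in PRC2 genes became 1.5 at a depth of at least 20, 0.5 at a mapping quality of at least 50 and 1.25 with variant reads on both strands. Leaving out each replicate in turn gave 2 to 3. Sites confident in all samples numbered 20, and 20 to 31 with a replicate left out (31 without replicate 3 and 31 without replicate 4). With all replicates kept they ranged from 14 at an allele fraction of at least 0.3 to 24 with SpeedSeq alone. Private sites numbered 62, and 5 to 71 with a replicate left out (5 without replicate 3). With all replicates kept they ranged from 50 with variant reads on both strands to 80 with VarScan2 alone. The other results stayed within 1.5 times or 1 SD of their value under the alternatives run: the mean of variants per sample between 51.7 and 73, the mean of genes between 5.75 and 10.8 (for replicate 4 alone the count of 8 genes ranged from 4 to 12), the mean upper-range share between 21.2% and 39.3%, and the sites called by Fisher's exact test between 19 and 24. No paired analysis was possible because the labels give 1 group and no pairs. The median depth at variants in these genes, 47 to 60 reads, gives wide intervals per site. Variants under 20%, exon deletions, coding effects and coverage at sites without a call were not measured.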
